A study of Homo sapiens with 8 samples.

Results

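The immediate early genes JUN, MYC, EGR3 and KLF6 were examined in an RNA immunoprecipitation experiment that recovered RNA fragments carrying N4-acetylcytidine (ac4C), an acetylated form of cytidine that the acetyltransferase NAT10 writes into RNA. The members were all peaks of the deposited count tables that overlapped the annotated GRCh38 span of 1 of these 4 genes. There were 8 such peaks of 31395 in all, 3 in JUN, 2 in MYC, 2 in EGR3 and 1 in KLF6, and all 8 passed the filter on low counts. None of the 8 overlapped another annotated gene.

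The cells were the human osteosarcoma lines 143B and HOS, and 143B was itself derived from HOS. In each line, 1 library came from NAT10 knockout cells (labelled sgNAT10) and 1 from control cells (labelled NC), all from poly(A)-selected, fragmented RNA bound by an anti-ac4C antibody. The 4 libraries used are therefore 143B sgNAT10, 143B NC, HOS sgNAT10 and HOS NC. Whether the knockout cells were a clone or a pool, and the guide used, are not given in the labels. The input libraries were not used here, so a lower count can reflect less of the RNA or less of it recovered, and these cannot be told apart.

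Immediate early genes are transcribed within minutes of a growth factor or stress signal without new protein synthesis, largely downstream of the MAP kinase pathway, and their mRNAs are short-lived. JUN encodes a subunit of the AP-1 transcription factor, which binds DNA as a dimer with FOS or ATF family partners. MYC encodes a basic helix-loop-helix factor that binds E-boxes with its partner MAX and drives growth and ribosome synthesis. EGR3 is a zinc finger factor of the early growth response family, induced by growth and antigen receptor signals. KLF6 is a Krüppel-like zinc finger factor that binds GC-rich promoters and is known as a growth suppressor in several tumours.

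The promoters of JUN and KLF6 are shown because immediate early transcription is set through short elements close to the start, and because JUN peak 3 began 52 bp inside the JUN start, next to this window. RefSeq promoter sequence (GRCh38.p14) was at hand for JUN and KLF6, both on the minus strand. The runs below are the 250 bases before each start, JUN at chr1:58784048-58784297 and KLF6 at chr10:3785210-3785459, with the element TGACATCA in capitals.
JUN: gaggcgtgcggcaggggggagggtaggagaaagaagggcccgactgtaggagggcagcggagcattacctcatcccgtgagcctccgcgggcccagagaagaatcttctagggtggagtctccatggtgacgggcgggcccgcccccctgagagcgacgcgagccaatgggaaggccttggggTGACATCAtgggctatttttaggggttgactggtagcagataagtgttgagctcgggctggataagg
KLF6: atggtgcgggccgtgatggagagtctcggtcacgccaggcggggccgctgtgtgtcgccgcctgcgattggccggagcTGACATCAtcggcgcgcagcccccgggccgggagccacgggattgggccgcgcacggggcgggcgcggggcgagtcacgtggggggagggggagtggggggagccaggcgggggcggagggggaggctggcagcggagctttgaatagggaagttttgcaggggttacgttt
Both windows held TGACATCA, an AP-1 and ATF type element, 67 to 60 bases before the start in JUN and 172 to 165 bases before the start in KLF6. Of 35116 promoter windows of the same length, 2.37% held it on either strand. The cyclic AMP response element TGACGTCA (1.65% of windows), the AP-1 element TGACTCA (4.20%), the TATA element TATAAA (10.7%) and the CArG box of serum response factor (1.16%) had no match in these letters in either window. The E-box CACGTG, the sequence MYC binds, matched in KLF6 at 97 to 92 bases before the start, and in 6.34% of windows. CCAAT matched 1 time in JUN and 2 times in KLF6 (in 32.0% of windows), and the GC box GGGCGG matched 2 times in each (in 42.6% of windows). All motifs were searched on both strands, and the 2 GC box matches of JUN lie on opposite strands. The GC content was 62.0% in JUN and 72.4% in KLF6. A match is a description of the letters and says nothing about binding in these cells.

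The libraries held 20107718 to 24785306 counts over all peaks, which is not their full depth. Levels are normalised read counts (CPM) after TMM scaling, with factors of 0.729 to 1.26. Peaks of the rRNA block on chromosome 21 held 34.0% of the counts in 143B sgNAT10 and 42.6% in 143B NC, and 42.5% in HOS sgNAT10 and 60.3% in HOS NC, so this share was lower in sgNAT10 in both lines. NAT10 had 1 peak, with 130 counts in 143B sgNAT10 and 65 in 143B NC, and 63 in HOS sgNAT10 and 180 in HOS NC, so its count was lower than in NC in HOS only (log2 difference 0.49 in 143B and -1.85 in HOS). An edited gene can keep its mRNA, and the libraries are called by their labels throughout. The 143B library labelled sgNAT10 stood apart, with Spearman correlations across peaks of 0.583 to 0.718 with the others, against 0.803 to 0.865 among those. Of 10 mesenchymal and osteosarcoma markers 5 had peaks, among them VIM, SPARC, CD44 and RUNX2, while COL1A1, COL1A2, FN1, SPP1 and BGLAP had none assigned. Summed over the 5, the level was 284 CPM in 143B sgNAT10 and 528 CPM in 143B NC, and 960 CPM in HOS sgNAT10 and 1022 CPM in HOS NC. Most of these counts were VIM, and the members went different ways. The log2 differences, sgNAT10 minus NC, in 143B were -0.99 for VIM, -1.81 for RUNX2, -0.97 for ALPL, 0.05 for SPARC and 0.50 for CD44, and in HOS they were 0.0008 for VIM, 0.78 for RUNX2, -0.31 for ALPL, -1.87 for SPARC and -1.58 for CD44. Of 4 epithelial markers only CDH1 had peaks, at 0.248 CPM in 143B sgNAT10 and 1.505 CPM in 143B NC, and at 35.1 CPM in HOS sgNAT10 and 0.277 CPM in HOS NC. The haematopoietic marker PTPRC stayed at or below 0.779 CPM, and the endothelial marker VWF lay between 1.60 and 3.05 CPM. The part of these differences in the results below was not tested.

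All 8 peaks had lower CPM in the library labelled sgNAT10 than in NC in both lines with TMM scaling, EGR3 most in 143B and KLF6 most in HOS, but no peak passed the test across lines. A shift is the difference in log2 CPM, sgNAT10 minus NC (with 1 as prior count). The range in brackets after a shift is its 95% interval and covers counting error alone. Without molecular identifiers, reads are not independent molecules. In 143B the 8 shifts ran from -2.50 to -0.72 (median -1.44), where 5 peaks were at least 2-fold lower, against 21.4% of the 24467 peaks tested. In HOS they ran from -1.81 to -0.01 (median -0.39), and 1 peak was at least 2-fold lower, against 8.8% of peaks tested. The counting interval lay wholly below 0 for 8 of the 8 peaks in 143B and for 6 in HOS. Lower by any size were 48.7% of peaks tested in 143B and 36.8% in HOS, and 19.4% were lower in both lines. Restricted to the 10245 peaks in protein-coding genes that averaged at least 20 counts, 28.1% were lower in both lines. In 143B, 60.8% of them were lower and 34.5% at least 2-fold lower, and in HOS these shares were 51.6% and 13.7%. Their median shift was -0.48 in 143B and -0.03 in HOS, against 0.05 and 0.31 over all peaks tested. Peaks of a gene lie on the same transcript and are not separate observations, so the 8 stand for 4 genes. Scaled to library totals alone, 2 of the 8 (MYC peak 1 and KLF6) stayed lower in HOS and 6 turned higher, while all 8 stayed lower in 143B. These totals include the rRNA block, and with TMM factors taken without its peaks all 8 were lower in both lines.

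The test across lines was the edgeR quasi-likelihood test on all peaks with cell line as a block, adjusted by the Benjamini-Hochberg method. With 1 library for each line and genotype it left 1 residual degree of freedom. It called 0% of the 24467 peaks at an adjusted p of 0.05, and 3.84% had an unadjusted p below that value. For the 8 peaks the log2 fold changes lay between -1.48 (EGR3 peak 2, SE 0.92) and -0.50 (JUN peak 1, SE 0.84), each with an adjusted p = 0.981 in edgeR and lower in 2 of 2 lines. As gene sums, edgeR gave -0.80 (SE 0.93) for JUN, -0.91 (SE 0.68) for MYC, -1.38 (SE 0.98) for EGR3 and -1.28 (SE 0.76) for KLF6, each with an adjusted p = 0.986. Within a line there is no replicate and no test.

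**Figure D1:**
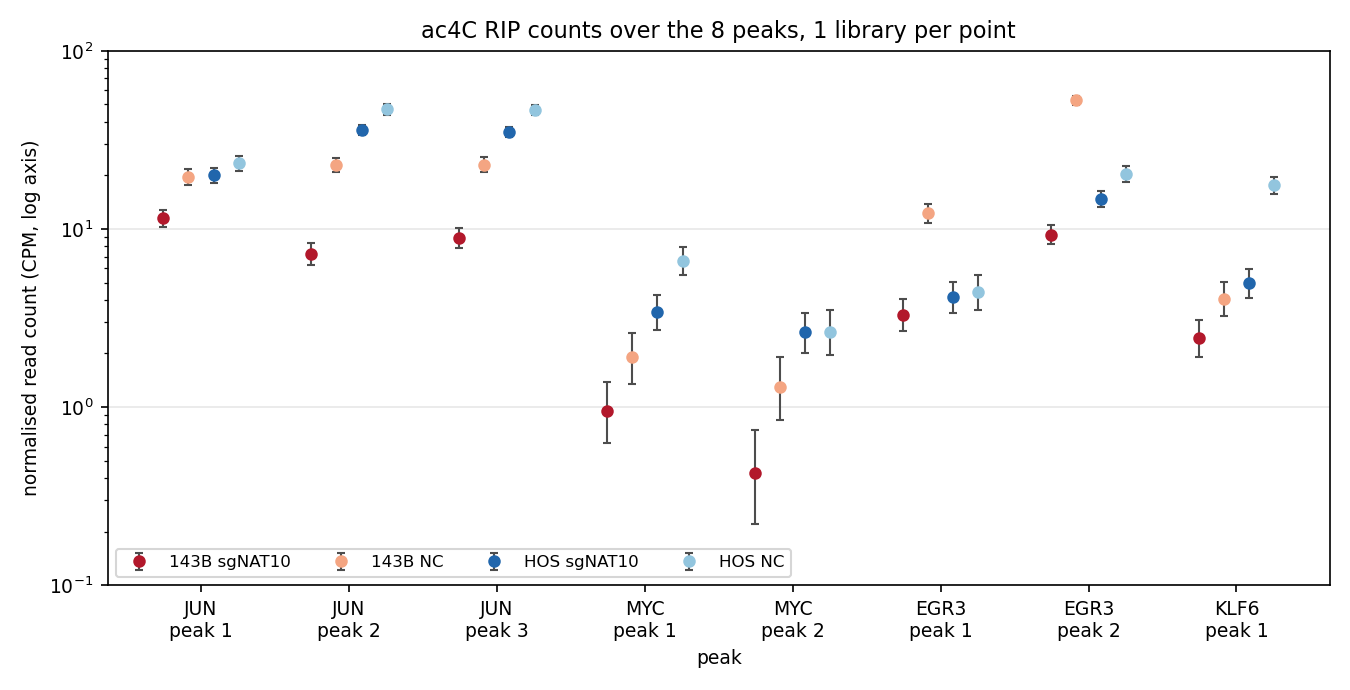
CPM (log axis) of each of the 8 peaks in each of the 4 libraries, 1 library per point, with 95% Poisson intervals for counting error only. In 143B the points of the library labelled sgNAT10 lie below those of NC at every peak, and EGR3 peak 2 spans 9.28 CPM in 143B sgNAT10 and 52.7 CPM in 143B NC.

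JUN, the AP-1 subunit (Gene ID 3725, chromosome 1, 58780791 to 58784047), had the most counts of the 4 genes, and in 143B its shift differed along the gene. Such differences are common: the range of shifts within JUN was 0.88 in 143B and 0.18 in HOS. Over 426 genes with 3 peaks the median range was larger, 1.38 in 143B and 0.66 in HOS. The annotation gives spans and no exons, and whether peak starts count from 0 or 1 is not given, so positions are as deposited. Because JUN lies on the minus strand, peak 3 (58783766 to 58783995) is nearest the transcript's start, peak 2 (58783112 to 58783286) follows, and peak 1 (58781790 to 58781929) lies 999 bp from its far end. Peak 3 had 252 counts in 143B sgNAT10 and 458 in 143B NC, and 810 in HOS sgNAT10 and 839 in HOS NC. Peak 2 had 205 counts in 143B sgNAT10 and 456 in 143B NC, and 832 in HOS sgNAT10 and 847 in HOS NC. Peak 1 had 324 counts in 143B sgNAT10 and 390 in 143B NC, and 463 in HOS sgNAT10 and 424 in HOS NC. The raw counts of the HOS libraries were thus close at each peak, and 143B sgNAT10 was the lowest library at all of them.

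Scaled, JUN peak 3 had 8.92 CPM in 143B sgNAT10 and 23.0 CPM in 143B NC, a shift of -1.36 (-1.59 to -1.14), and 35.0 CPM in HOS sgNAT10 and 46.4 CPM in HOS NC, a shift of -0.41 (-0.55 to -0.27). Peak 2 had shifts of -1.65 (-1.90 to -1.42) in 143B and -0.38 (-0.52 to -0.24) in HOS. Peak 1 had shifts of -0.77 (-0.99 to -0.55) in 143B and -0.23 (-0.42 to -0.04) in HOS. The HOS shifts of the JUN peaks turned to 0.18, 0.20 and 0.36 with library totals alone. Summed over its peaks, JUN was at 27.7 CPM in 143B sgNAT10 and 65.4 CPM in 143B NC, or 42.3% of NC, and at 90.9 CPM in HOS sgNAT10 and 117 CPM in HOS NC, or 77.9% of NC.

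The division of JUN counts among its peaks does not depend on scaling. Peak 1, the one nearest the far end of the transcript, held 41.5% of JUN counts in 143B sgNAT10 (95% Wilson interval 38.1 to 45.0%) and 29.9% in 143B NC (27.5 to 32.4%). In HOS it held 22.0% in sgNAT10 (20.3 to 23.8%) and 20.1% in NC (18.4 to 21.9%), and these intervals overlap. Peak 2 held 26.2% in 143B sgNAT10 and 35.0% in 143B NC, and 39.5% in HOS sgNAT10 and 40.1% in HOS NC. The share of peak 1 thus differed between all 143B and HOS libraries, also between the NC libraries, beyond counting error.

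**Figure D2:**
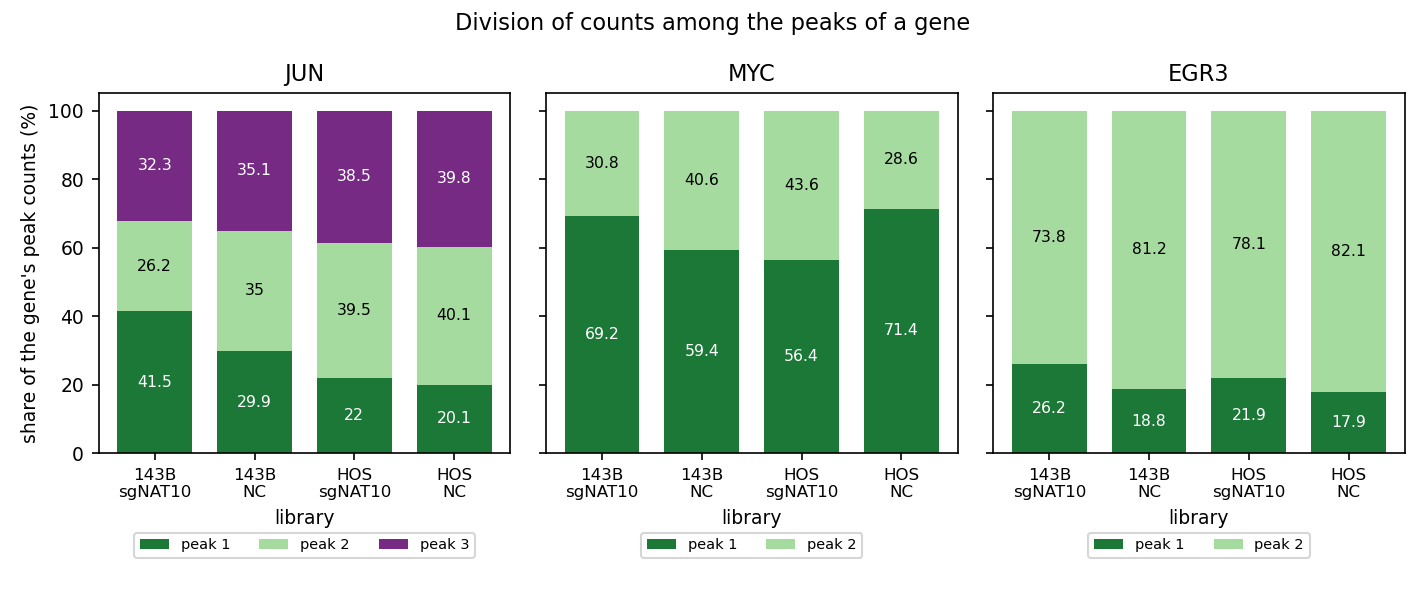
Share of a gene's peak counts (%) held by each of its peaks in each library, for JUN, MYC and EGR3, peaks numbered by rising coordinate. JUN peak 1 takes 41.5% in 143B sgNAT10 and 29.9% in 143B NC, against 22.0% in HOS sgNAT10 and 20.1% in HOS NC.

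In 143B, peaks near the far end of a gene had a higher shift in the series as a whole. Over protein-coding genes with a known strand, the median 143B shift lay between -0.72 and -0.60 in the bins from 0 to 80% of the span and was 0.29 in the bin from 80 to 100% (2912 peaks). In HOS the medians were 0.02 to 0.10 in the first bins and -0.34 in the last. JUN peaks 3, 2 and 1 sit at 5.11%, 26.0% and 67.2% of the span, and only peak 1 came near the 143B median of its bin (-0.67), with the others below. Of 329 genes with 3 such peaks, 54.4% had their highest 143B shift at the peak nearest the far end of the transcript, as JUN did, and 39.8% had it there in HOS, as JUN also did.

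**Figure D3:**
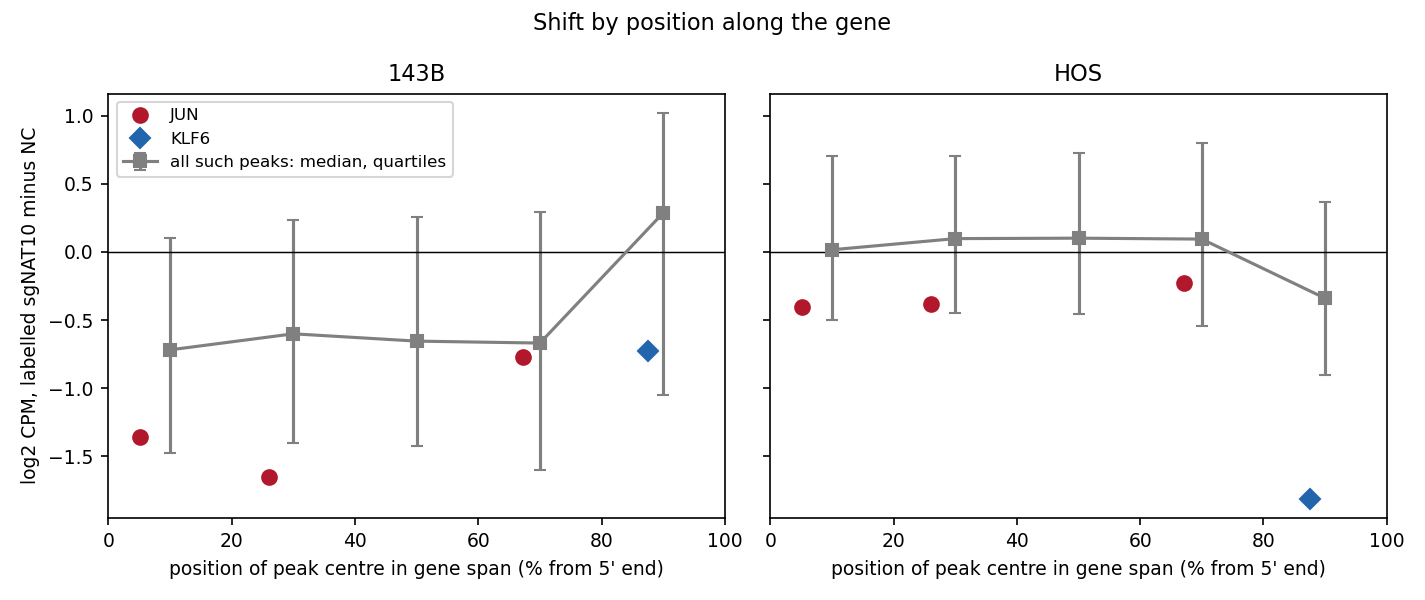
Shift (log2 CPM, sgNAT10 minus NC) against the position of the peak centre in the gene span (% from the 5' end) in 143B and HOS, with grey squares for the median and bars for the quartiles of all peaks in protein-coding genes that averaged at least 20 counts. JUN peaks 3 and 2 lie below the 143B medians, and KLF6 lies below the median of the last bin in both lines, at -0.72 in 143B and -1.81 in HOS; with library totals alone the JUN shifts in HOS turn positive.

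MYC, the E-box factor (Gene ID 4609, chromosome 8, 127735434 to 127742951), had the fewest counts of the 3 genes with several peaks, and its values are the least precise. Peak 1 (127736329 to 127736525) lies 895 bp from the lower end of the span and peak 2 (127738083 to 127738212) 2649 bp from it. Peak 1 had 27 counts in 143B sgNAT10 and 38 in 143B NC, and 79 in HOS sgNAT10 and 120 in HOS NC. Peak 2 had 12 counts in 143B sgNAT10 and 26 in 143B NC, and 61 in HOS sgNAT10 and 48 in HOS NC. The counts of 143B were below those of HOS in every pairing of libraries.

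The shifts of MYC peak 1 were close in the lines, -0.96 (-1.76 to -0.25) in 143B and -0.95 (-1.39 to -0.54) in HOS, a difference of -0.01 with a counting interval of -0.83 to 0.81. Those of peak 2 were -1.52 (-2.74 to -0.58) in 143B and -0.01 (-0.58 to 0.57) in HOS, so at this depth no difference in HOS was detectable. Summed, MYC was at 1.38 CPM in 143B sgNAT10 and 3.21 CPM in 143B NC, and at 6.05 CPM in HOS sgNAT10 and 9.29 CPM in HOS NC. Peak 1 held 56.4% of MYC counts in HOS sgNAT10 (48.2 to 64.4%) and 71.4% in HOS NC (64.2 to 77.7%), intervals that overlap by little. In 143B it held 69.2% in sgNAT10 and 59.4% in NC, with wide intervals that overlap.

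EGR3, the early growth response factor (Gene ID 1960, chromosome 8, 22687659 to 22693480), had the lowest shift of the 4 genes in 143B. Its peaks lie at the upper end of the span, peak 1 (22692883 to 22693060) 420 bp and peak 2 (22693272 to 22693464) 16 bp from it. Peak 2 had 262 counts in 143B sgNAT10 and 1051 in 143B NC, and 342 in HOS sgNAT10 and 368 in HOS NC. Peak 1 had 93 counts in 143B sgNAT10 and 244 in 143B NC, and 96 in HOS sgNAT10 and 80 in HOS NC. At both peaks 143B NC was the highest library. The raw count of 143B sgNAT10 lay between those of the HOS libraries at peak 1 and below both at peak 2. Scaled, peak 2 had 9.28 CPM in 143B sgNAT10, against 14.8 CPM in HOS sgNAT10 and 20.4 CPM in HOS NC.

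The shift of EGR3 peak 2 was -2.50 (-2.71 to -2.31) in 143B, with 3.89% of peaks tested lower still, and -0.46 (-0.68 to -0.25) in HOS. That of peak 1 was -1.88 (-2.25 to -1.54) in 143B and -0.09 (-0.54 to 0.35) in HOS. The shifts in 143B were lower than those in HOS by more than counting error, with differences of -2.04 (-2.33 to -1.75) at peak 2 and -1.79 (-2.34 to -1.24) at peak 1, but the design leaves no spread to test a difference between lines. With library totals alone both HOS shifts were positive (0.12 and 0.49). Peak 2 held 73.8% of EGR3 counts in 143B sgNAT10 (69.0 to 78.1%) and 81.2% in 143B NC (78.9 to 83.2%), and 78.1% in HOS sgNAT10 and 82.1% in HOS NC.

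Ratios of one member to another within a library are also free of scaling. For every 100 JUN counts there were 45.5 EGR3 counts in 143B sgNAT10 (exact 95% interval 40.0 to 51.6) and 99.3 in 143B NC (91.9 to 107). In HOS there were 20.8 in sgNAT10 (18.7 to 23.1) and 21.2 in NC (19.1 to 23.5). EGR3 was thus lower relative to JUN in 143B sgNAT10 than in 143B NC, and the HOS libraries did not differ beyond counting error.

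KLF6, the Krüppel-like factor (Gene ID 1316, chromosome 10, 3775996 to 3785209), had 1 peak (3777037 to 3777244), 1041 bp from the lower end of the span, which on the minus strand is the far end of the transcript. It had 69 counts in 143B sgNAT10 and 81 in 143B NC, and 115 in HOS sgNAT10 and 317 in HOS NC. HOS NC was by far the highest library, and the other 3 lay closer to each other. The level was 2.44 CPM (1.90 to 3.09) in 143B sgNAT10 and 4.06 CPM (3.23 to 5.05) in 143B NC, a shift of -0.72 (-1.22 to -0.25). It was 4.97 CPM (4.10 to 5.96) in HOS sgNAT10 and 17.5 CPM (15.7 to 19.6) in HOS NC, a shift of -1.81 (-2.14 to -1.51), and 1.29% of peaks tested had a lower shift in HOS. With library totals alone the HOS shift was -1.23.

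The shift of KLF6 was lower in HOS than in 143B, by 1.09 (0.53 to 1.64, counting error only). With TMM scaling the other 7 peaks had the lower shift in 143B, but MYC peak 1, whose shifts were nearly equal, had the lower one in HOS with RLE or upper quartile factors, with TMM without the rRNA block or over protein-coding peaks only, and with a prior count of 5. Relative to 100 JUN counts, KLF6 had 5.46 counts in HOS sgNAT10 (4.49 to 6.59) and 15.0 in HOS NC (13.3 to 16.9). In 143B it had 8.83 in sgNAT10 (6.80 to 11.3) and 6.21 in NC (4.90 to 7.78). For MYC these ratios were 4.99 in 143B sgNAT10 and 4.91 in 143B NC, and 6.65 in HOS sgNAT10 and 7.96 in HOS NC, with intervals that overlap within each line.

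**Figure D4:**
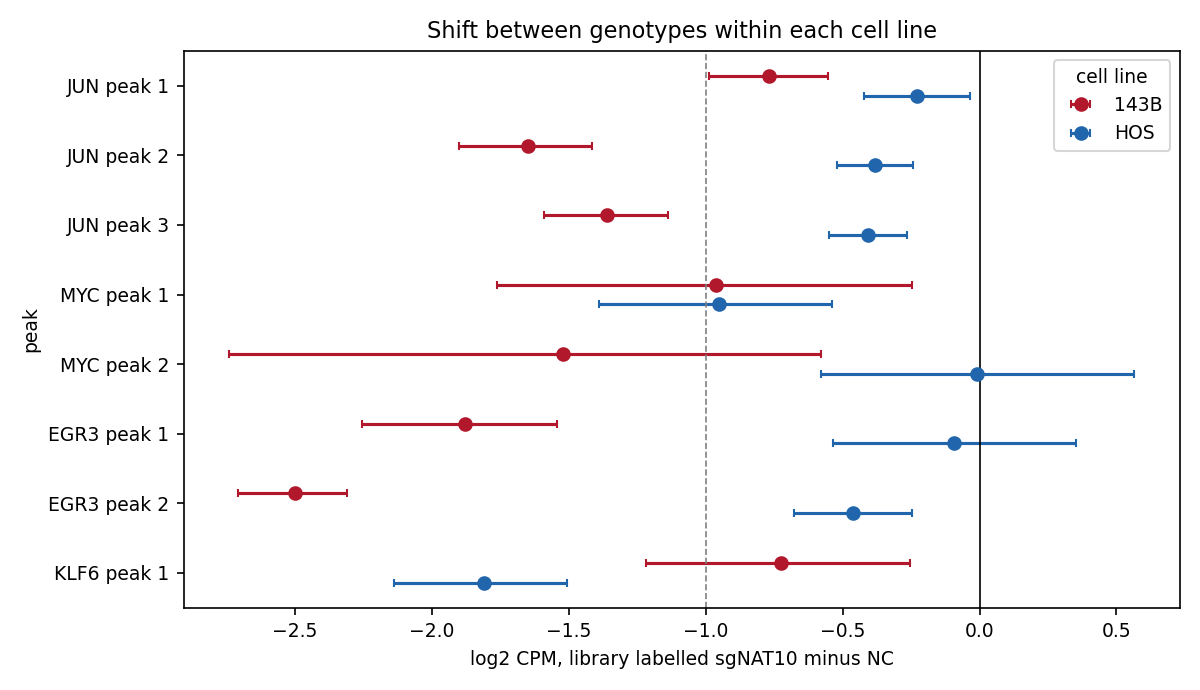
Shift (log2 CPM, sgNAT10 minus NC) of each peak in 143B and HOS, with 95% intervals for counting error; the dashed line marks a 2-fold lower value. EGR3 peak 2 is lowest in 143B (-2.50) and KLF6 in HOS (-1.81), and with library totals alone the HOS points of JUN, EGR3 and MYC peak 2 turn positive.

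Per kilobase of peak, which allows genes to be compared, JUN led in the HOS libraries and EGR3 in 143B NC. JUN had 51.0 CPM per kilobase in 143B sgNAT10 and 121 in 143B NC, and 168 in HOS sgNAT10 and 215 in HOS NC. EGR3 had 34.1 in 143B sgNAT10 and 176 in 143B NC, and 51.3 in HOS sgNAT10 and 67.2 in HOS NC. KLF6 followed with 11.8 and 19.6 in 143B sgNAT10 and NC and 24.0 and 84.7 in HOS sgNAT10 and NC, and MYC with 4.25 and 9.88 in 143B sgNAT10 and NC and 18.6 and 28.6 in HOS sgNAT10 and NC. The order of the genes was JUN, EGR3, KLF6 and MYC in 143B sgNAT10 and HOS sgNAT10, EGR3 before JUN in 143B NC, and KLF6 before EGR3 in HOS NC. Of the neighbours in these orders, only KLF6 (19.8 to 28.8) and MYC (15.7 to 22.0) in HOS sgNAT10 had counting intervals that overlapped.

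Between the lines, EGR3 was higher and MYC, KLF6 and JUN lower in 143B NC than in HOS NC. The log2 difference, 143B minus HOS, was 1.39 (1.23 to 1.55) for EGR3, -0.84 (-0.94 to -0.74) for JUN, -1.52 (-1.97 to -1.11) for MYC and -2.10 (-2.48 to -1.75) for KLF6 as gene sums. Between the libraries labelled sgNAT10 it was -0.59 (-0.80 to -0.38) for EGR3, -1.72 (-1.84 to -1.60) for JUN, -2.10 (-2.68 to -1.61) for MYC and -1.01 (-1.48 to -0.58) for KLF6. EGR3 therefore was higher in 143B between NC libraries and lower between sgNAT10 libraries, where its peak 1 turned higher with upper quartile factors and with TMM over protein-coding peaks only (up to 0.22). JUN peak 1 turned higher between NC libraries with library totals alone and with TMM over protein-coding peaks only (up to 0.18). The other member peaks kept their direction under all 7 settings. In edgeR with genotype as a block, 0% of peaks were called for cell line. MYC peaks 1 and 2 had log2 fold changes of -1.81 (SE 0.82) and -1.80 (SE 0.78), with unadjusted edgeR p of 0.0440 and 0.0383 and adjusted p of 0.557 and 0.555, lower in 2 of 2 genotypes. Lower in 143B with an unadjusted p under 0.05 were 4.08% of peaks, and in either direction 2188 peaks.

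Few relatives of these genes had peaks. Of 14 AP-1 partners 2 had an assigned peak, FOSL1, a FOS family subunit, and ATF4, the factor of the integrated stress response, and both were lower in both lines, as 21.8% of all 8062 gene sums tested were. FOSL1 had 906 counts in 143B sgNAT10 and 757 in 143B NC, and 945 in HOS sgNAT10 and 920 in HOS NC, shifts of -0.24 (-0.38 to -0.10) and -0.32 (-0.45 to -0.19). ATF4 had shifts of -1.19 (-1.37 to -1.003) in 143B and -0.68 (-0.78 to -0.58) in HOS. None of the 5 EGR family genes and cofactors, EGR1 and EGR2 among them, had an assigned peak. Of 17 KLF and SP genes 6 had peaks and 4 were tested, with a median of 0.42 for 143B and -0.16 for HOS. None of these 4 was at least 2-fold lower in either line, against 17.7% of all gene sums in 143B and 12.8% in HOS, and KLF9 was at least 2-fold higher in HOS (1.51). KLF3, a repressor of the family, had shifts of -0.89 (-1.29 to -0.50) in 143B and -0.22 (-0.67 to 0.21) in HOS. It was the only 1 of the 4 lower in both lines.

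In the MYC network, 5 of 14 genes were tested. The median shift was -0.45 in 143B and 0.36 in HOS, against 0.17 and 0.04 over all 8062 gene sums tested. Of the 5, 0 were lower in both lines, and so few genes cannot be told apart from the 21.8% of all gene sums. MAX, the partner MYC needs to bind DNA, had shifts of 0.09 (-0.27 to 0.46) in 143B and -1.0001 (-1.30 to -0.72) in HOS. MLXIP, a glucose-sensing relative, had 306 counts in 143B sgNAT10 and 1398 in 143B NC, and 733 in HOS sgNAT10 and 557 in HOS NC, shifts of -2.69 and 0.04. FBXW7, the ubiquitin ligase adaptor that targets MYC for degradation, had shifts of -0.45 and 1.56.

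Among 40 other immediate early genes, 13 had peaks and 12 were tested. The 143B comparison had 4 at least 2-fold lower (17.7% of all gene sums were) and 4 at least 2-fold higher (20.4%), with a median of -0.01. The HOS comparison had 3 lower (12.8%) and 1 higher (16.7%), with a median of -0.69. Lower in both lines by any size were 3 of the 12, against 21.8% of all gene sums. This list was not tested as a set. CCN1, a secreted matrix protein, had shifts of -1.73 (-1.97 to -1.499) in 143B and -1.59 (-1.74 to -1.44) in HOS. PHLDA1, which is induced by growth factors, had -1.94 and 0.23, and SPRY4, a feedback inhibitor of receptor signalling, had 239 counts in 143B sgNAT10 and 781 in 143B NC, and 2527 in HOS sgNAT10 and 968 in HOS NC, shifts of -2.20 and 1.03. IER2 had 0.08 and 0.28, and MCL1, which blocks apoptosis, -0.11 and -0.91.

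Upstream, 10 of 20 genes of the MAP kinase and serum response factor pathway were tested. Each line had 4 at least 2-fold lower, against 17.7% of all gene sums in 143B and 12.8% in HOS. Each had 1 at least 2-fold higher, against 20.4% in 143B and 16.7% in HOS. The medians were -0.40 for 143B and -0.24 for HOS, against 0.17 and 0.04 over all gene sums tested. Lower in both lines by any size were 4 of the 10, against 21.8% of all gene sums. The shares of lower values were larger among single peaks of protein-coding genes that averaged at least 20 counts. Of those peaks 34.5% in 143B and 13.7% in HOS were at least 2-fold lower, and 28.1% were lower in both lines. This list of 10 genes was not tested as a set either. The kinase gene MAP2K1 was lower in both, with shifts of -1.30 (-1.61 to -1.01) and -1.26 (-1.46 to -1.06). ELK1, a partner of serum response factor, had -2.15 and 0.14. No gene of these lists passed the edgeR test. With library totals alone 0.34 is added to every shift in 143B and 0.57 in HOS, which turns FOSL1 positive in both lines.

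**Figure D5:**
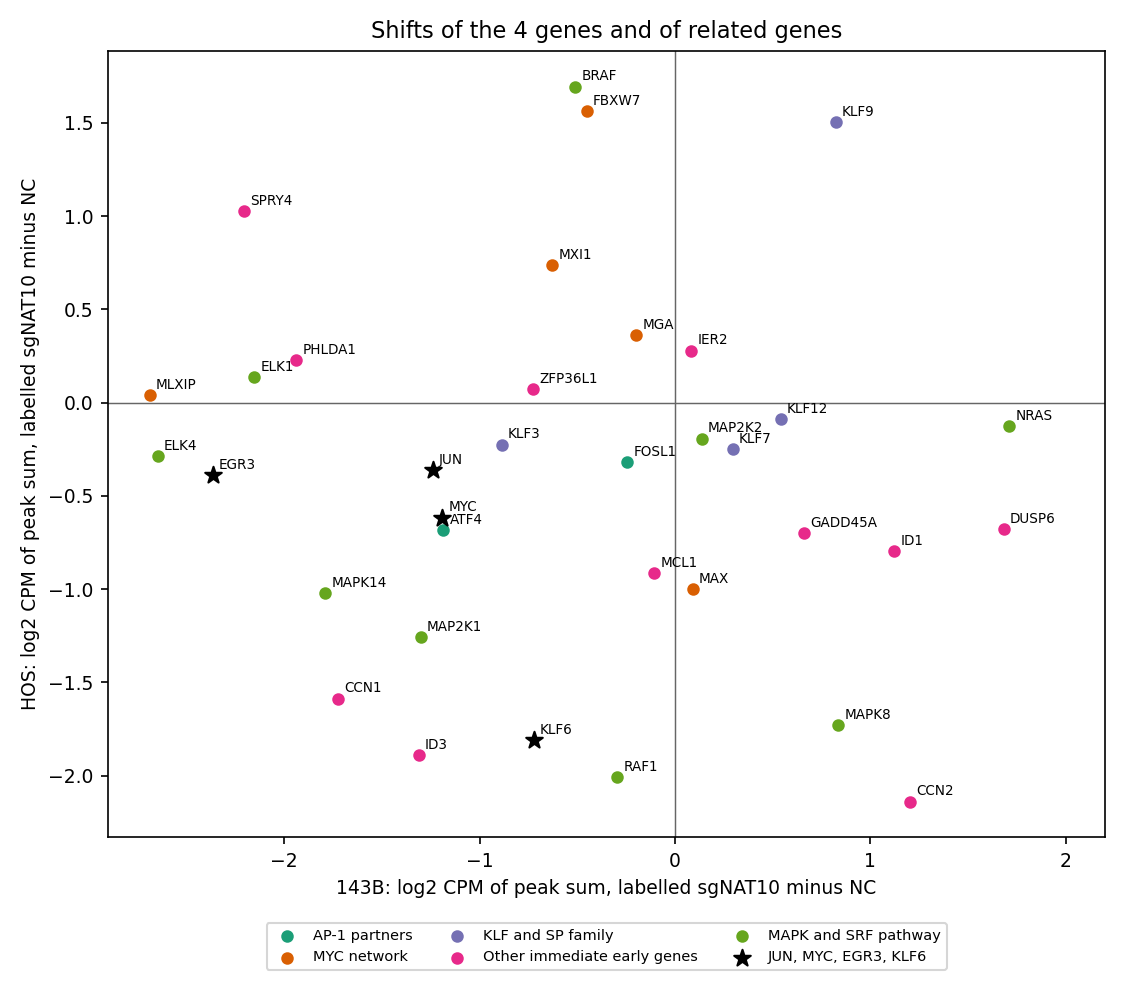
Shift of the peak sum (log2 CPM, sgNAT10 minus NC) in 143B (horizontal) and HOS (vertical) for JUN, MYC, EGR3 and KLF6 (stars) and for tested genes of 5 lists (circles), of which 2 are not shown. The 4 stars lie at the lower left with ATF4, CCN1 and MAP2K1; with library totals alone JUN and EGR3 move above the horizontal line.

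Between the control libraries, the other immediate early genes were mostly lower in 143B, as JUN, MYC and KLF6 were and EGR3 was not. Of the 12 tested, 11 were lower in 143B NC than in HOS NC, with a median log2 difference, 143B minus HOS, of -1.27, against 54.7% of all gene sums lower and a median of -0.13. They included CCN1 (-1.48), MCL1 (-1.39), IER2 (-1.37) and ZFP36L1 (-1.25), and under the other scalings 11 or 12 of the 12 were lower. Most tested genes of the other lists were lower too, with 9 of 10 of the MAP kinase and serum response factor pathway (median -0.82), 2 of 2 AP-1 partners (-1.05), 3 of 4 KLF and SP genes (-1.09) and 3 of 5 of the MYC network (-0.55). Between the libraries labelled sgNAT10, 8 of the 12 were lower in 143B, with a median of -0.62, against 47.8% of all gene sums lower. These counts were made after the values were seen and have no test.

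The genes most like each member over the 4 libraries were found by the distance between log2 CPM values, each gene centred on its own mean, among 4750 genes that averaged at least 50 counts. For JUN they were WASH3P (0.06), NIPSNAP1 (0.07) and EML6 (0.10), and for MYC FANCD2 (0.09), ATF4 (0.12) and KLHDC3 (0.13). For EGR3 they were ST8SIA6 (0.27), DISP2 (0.31) and BCLAF3 (0.31), and for KLF6 IGF2R (0.14), SLC1A5 (0.17) and APPL1 (0.24). Among the members, JUN and MYC were closest (0.56) and EGR3 and KLF6 farthest apart (2.49). Of the genes compared, however, MYC ranked only 218 in nearness to JUN, and JUN 69 in nearness to MYC. KLF6 ranked 3567 in nearness to EGR3, so many other genes lay nearer to a member than its fellow members did. With 4 libraries many genes share a pattern, and the distances are a description.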

How the data were processed

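The deposited values are raw read counts per peak interval, and the 143B and HOS tables list identical intervals; per the file headers each has a column for sgNAT10 and for NC. The column names leave out the assay, and the table names (RIP count) put them with the acRIP samples. The submitters' processing notes name GRCh38, FastQC, STAR, SAMtools and deepTools; the peak caller, the counting tool, strand and multi-mapped reads are not given in the sources used here.

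Peaks were assigned to the protein-coding gene they overlapped where there was exactly 1, otherwise to the single annotated gene (RefSeq GRCh38.p14); gene values are sums over peaks. Counts were tested in R 4.3.3 with edgeR 4.0.16 (filterByExpr, minimum count of 10 and minimum total of 15, TMM on the peaks kept, quasi-likelihood test, Benjamini-Hochberg, threshold 0.05). DESeq2 1.42.0 and limma 3.58.1 were alternatives. Intervals are 95% and cover counting error only: exact Poisson (CPM), exact conditional binomial (shifts, ratios), Wilson (shares) and a normal approximation (difference of shifts). The members, gene lists and motifs were chosen with earlier results of these data known. Named were all member peaks, up to 6 genes per list by mean count, and the 3 genes nearest each member; related genes with opposite shifts in the lines were listed after their values were seen. Labels give no separate cultures. Values of 2 listed genes are not reported here.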

Additional observations from a re-analysis of the deposited data

Results flagged for a closer look

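With TMM scaling, 19 tested genes of the lists of related genes had shifts of opposite signs in the lines, and some of them are named only here. Tested were 12 other immediate early genes and 10 of the MAP kinase and serum response factor pathway. The MYC network had 5, the KLF and SP genes 4 and the AP-1 partners 2. Of all 8062 gene sums tested, 44.0% were lower in 143B, 48.6% in HOS and 21.8% in both, so opposite signs were common. The difference between the lines was not tested, since each line has 1 library per genotype. The values are shift in 143B minus shift in HOS. Among the other immediate early genes it was positive for CCN2 (3.34), DUSP6 (2.36), ID1 (1.92) and GADD45A (1.36) and negative for SPRY4 (-3.23), PHLDA1 (-2.17) and ZFP36L1 (-0.80). In the MAP kinase and serum response factor pathway it was positive for MAPK8 (2.56), NRAS (1.84) and MAP2K2 (0.33) and negative for ELK1 (-2.29) and BRAF (-2.21). In the MYC network it was positive for MAX (1.09) and negative for MLXIP (-2.73), FBXW7 (-2.02), MXI1 (-1.37) and MGA (-0.56), and in the KLF family it was positive for KLF12 (0.63) and KLF7 (0.54). For MGA, KLF7 and MAP2K2 the counting interval of the shift took in both signs in both lines. It did so in 143B alone for MAX, MXI1 and FBXW7, and in HOS alone for MLXIP, KLF12, ZFP36L1, NRAS and ELK1. For all these genes opposite signs are therefore not settled by the counts. Signs near 0 also depend on the scaling. TMM without the rRNA block adds -0.27 to every HOS shift, which turns that of PHLDA1 (0.23) negative, as its 143B shift is. None of the 8 peaks of JUN, MYC, EGR3 and KLF6 had opposite signs with TMM scaling. By the same rule, however, the HOS signs of MYC peak 2 (-0.58 to 0.57) and EGR3 peak 1 (-0.54 to 0.35) are not settled by the counts.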

How the results depend on the processing

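With edgeR, 0 peaks were called for genotype and 0 for cell line, with 939 and 2188 at an unadjusted p under 0.05. Without the count filter 115 peaks were called for genotype and 122 for cell line, and with peaks limited to those averaging at least 100 counts 9 and 23. For cell line, library totals alone gave 2, the DESeq2 Wald test 15 and gene sums 1; the remaining settings gave 0 calls, with DESeq2 at 0 (500 unadjusted) and limma-trend at 0 (1082 unadjusted) for genotype. The cause was not tested. No member peak tested was called under these settings (the MYC peaks averaged under 100 counts and were not tested with that minimum), with adjusted p of at least 0.786 for genotype and 0.442 for cell line. Of the 8 member peaks, 8 were lower in sgNAT10 in 143B under all 7 settings of scaling and prior count. In HOS 8 were lower under 6 settings, and 2 with library totals alone, which add 0.57 to every HOS shift over TMM, while the remaining scalings move them by -0.27 to -0.05. TMM over peaks of protein-coding genes only was chosen after seeing the data. The edgeR test pairs the genotypes by cell line, and without this block 0 peaks were called for genotype; each group has 1 library, so no replicate could be left out. Low counts limit MYC most, with 12 to 120 counts per peak.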
